A study of Oryctolagus cuniculus with 15 samples.

Results

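The small leucine-rich proteoglycans KERA (keratocan), LUM (lumican), DCN (decorin), OGN (osteoglycin, also called mimecan), BGN (biglycan), ASPN (asporin) and FMOD (fibromodulin) were taken by gene symbol from the deposited gene tables, 7 of 23428 genes, and described over all 5 culture conditions. The cells were corneal keratocytes of New Zealand white rabbits, in their first passage and kept in defined serum-free medium for 6 days, with 3 libraries of RNA-seq in each condition. In 2DC the cells grew on a dish coated with bovine type I collagen and were given a short incubation in the digestion medium used to free cells from matrices. In 2DC_L they grew on the same coating and were lysed directly in the dish. In 2DF they grew on top of a matrix of fibrillar collagen. In 3DF they were embedded in such a matrix at 100000 cells per matrix, and in 3DF_50 at 50000 cells per matrix. Both 3D conditions and 2DF were digested to free the cells, and each library pooled several dishes or matrices. The study's methods describe the 3 libraries of a condition as separate experiments, and the p-values below measure the spread between these libraries.

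Small leucine-rich proteoglycans are secreted proteins whose curved core of leucine-rich repeats binds collagen fibrils and limits their lateral growth. In the corneal stroma they help to keep fibrils thin and evenly spaced, on which transparency depends. DCN, BGN and ASPN form class I, of which DCN and BGN carry chondroitin or dermatan sulfate chains. KERA, LUM and FMOD form class II and can carry keratan sulfate, as can OGN of class III in the cornea. Resident keratocytes are known for high KERA, LUM and DCN, while BGN is better known from developing and healing stroma.

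Levels are given in FPKM, fragment counts scaled for gene length and library size, so that genes can be compared with each other. Library totals ran from 14626982 to 31804255 gene counts, and the lowest was in 3DF_50. The 7 genes held between 4.70% and 9.06% of a library's counts, with the highest share in 3DF replicate 1. The keratocyte label was checked against 7 marker genes, of which 5 were in the table. ALDH1A1 and TKT, the crystallin-like enzymes of keratocytes, lay at 457 to 902 and 522 to 919 FPKM, and KERA and LUM are themselves on that marker list. Sums over the markers of myofibroblasts, vascular endothelium and leukocytes did not exceed 10.4, 6.36 and 7.73 FPKM in any library. The markers of corneal endothelium summed to 291 to 467 FPKM in the 2D libraries and to 78.2 to 184 FPKM in the 3D libraries. COL8A2 was the highest of them in each condition, and their part in the differences was not tested. The 8 measured markers of corneal epithelium summed to 0.138 to 1.12 FPKM in 2DC and to 7.54 to 12.8 FPKM in 3DF, and their part in the differences between these conditions was not tested.

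DCN had the highest mean FPKM of the 7 over the 15 libraries, although in 2DF LUM ranked 2 and DCN 5 among all genes. KERA, LUM, DCN and OGN were all among the leading transcripts of the cells. By mean FPKM over the 15 libraries DCN ranked 4, LUM 5, OGN 9 and KERA 13 among all genes, against 168 for BGN, 237 for ASPN and 292 for FMOD. In 3DF DCN had the highest mean of any gene. An F test over the 5 conditions (edgeR, adjusted p of at most 0.05) was passed by 6 of the 7 genes, at a background of 41.8% of all genes tested. With the library prefix as a block it was passed by 3 of the 7, and by 2793 of 14036 genes tested. With limma on log2(FPKM + 1) or log2(FPKM + 0.1) it was passed by 3 of the 7, and by 5491 or 5570 of 14845 genes. The exception in edgeR without the block was DCN (edgeR adjusted p = 0.229), whose library values stayed between 7639 and 12799.5 FPKM.

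**Figure D1:**
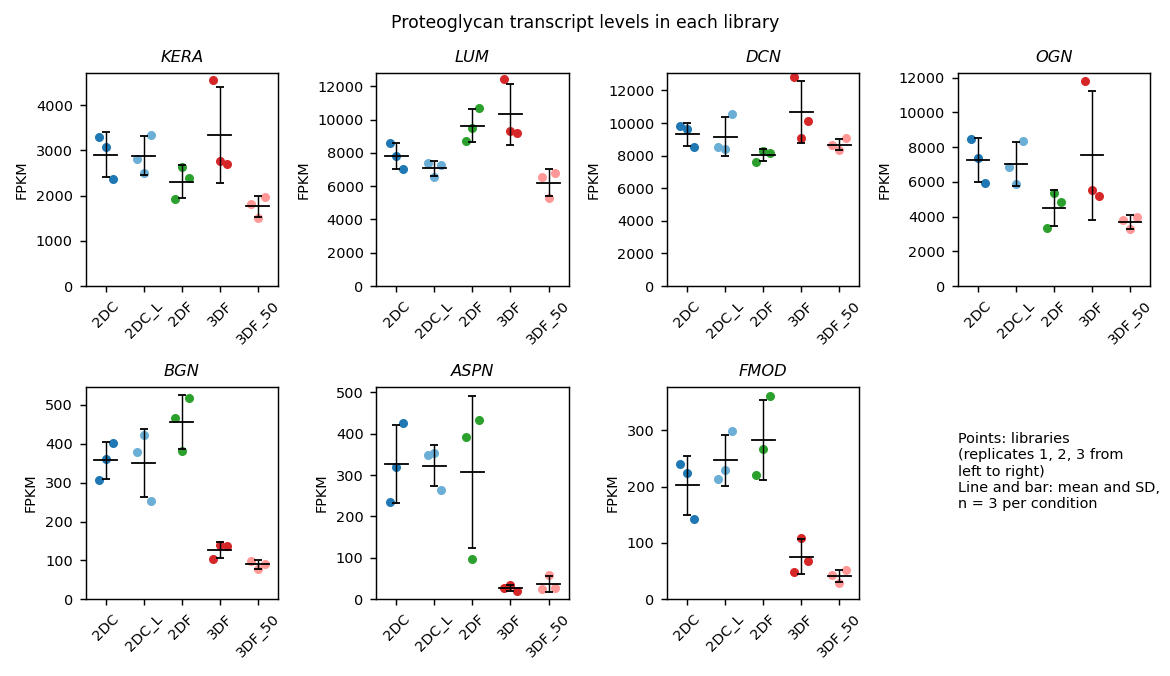
FPKM of each proteoglycan gene (vertical axis, linear from 0) in the 5 culture conditions (horizontal axis). Points are libraries, and lines with bars are the mean and SD of 3 libraries. BGN, ASPN and FMOD were lower in all 6 libraries of 3DF and 3DF_50 than in any of the 9 libraries of 2DC, 2DC_L and 2DF, while KERA, LUM, DCN and OGN overlapped between 3D and 2D.

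BGN, ASPN and FMOD were lower in cells embedded in the matrix than in cells grown on a dish or on top of a matrix. BGN, a class I proteoglycan that binds collagen and can signal through Toll-like receptors when released, had 307, 361 and 402 FPKM in 2DC. Its levels were 378, 421 and 254 FPKM in 2DC_L and 467, 382 and 518 FPKM in 2DF. In the matrix they were 104, 139 and 138 FPKM in 3DF and 99.0, 78.3 and 91.8 FPKM in 3DF_50. Every 3D library was thus below every 2D library, with a gap between 139 and 254 FPKM. The order of the means was 2DF, 2DC, 2DC_L, 3DF and 3DF_50, in which only 2DC_L and 3DF differed among neighbours by the edgeR test. In bulk RNA, fewer cells of a type and less RNA per cell cannot be told apart.

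ASPN, the class I member with a run of aspartate residues that competes with DCN for collagen and binds TGF-beta, showed the largest difference of the 7 genes between 3DF and 2DC. It had 236, 319 and 425 FPKM in 2DC and 349, 353 and 265 FPKM in 2DC_L. In 2DF it had 392, 98.3 and 433 FPKM, the second replicate far below the other two. In 3DF it had 27.5, 33.8 and 20.7 FPKM and in 3DF_50 24.8, 59.3 and 26.3 FPKM. In the order 2DC, 2DC_L, 2DF, 3DF_50 and 3DF only 2DF and 3DF_50 differed among neighbours by the edgeR test. The low 2DF library was still above the highest 3D library, 3DF_50 replicate 2.

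FMOD, the class II member that shares collagen binding sites with LUM, had 240.2, 224 and 142 FPKM in 2DC and 213, 229.5 and 298 FPKM in 2DC_L. It had 220.3, 266 and 361 FPKM in 2DF. The matrix libraries had 48.4, 109 and 68.8 FPKM in 3DF and 43.1, 29.1 and 51.3 FPKM in 3DF_50. The groups did not overlap, although the margin was small, since 3DF replicate 2 reached 109 FPKM and 2DC replicate 3 lay at 142 FPKM. In the order 2DF, 2DC_L, 2DC, 3DF and 3DF_50 only 2DC and 3DF differed among neighbours by the edgeR test. Of all genes tested, 4.29% were lower in all 3D than in all 2D libraries without overlap.

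The comparison of 3DF with 2DC asked how cells inside a collagen matrix differ from cells on a coated dish. A gene was called when its edgeR adjusted p was at most 0.05 and its log2 fold change at least 1 in size. By this rule 3 of the 7 genes were lower, at a background of 4.32% of all genes tested called lower. The log2 fold change of ASPN was -3.59 (edgeR adjusted p = 0.000161, SE 0.27, 95% interval -4.20 to -2.98), which is 12.0-fold lower. BGN differed by -1.501 (edgeR adjusted p = 0.000800, SE 0.17, 95% interval -1.88 to -1.12) and FMOD by -1.43 (edgeR adjusted p = 0.0165, SE 0.31, 95% interval -2.13 to -0.72). The FMOD call depended on single libraries, with -1.35 (adjusted p = 0.0622) in edgeR without 2DC replicate 2 and -1.37 (adjusted p = 0.0643) without 3DF replicate 3.

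Cells embedded at the lower density, 3DF_50, were compared with the same 2DC libraries, so that both comparisons share their controls. The 3 genes were again lower, at a background of 7.33% called lower. BGN differed by -1.99 (edgeR adjusted p = 1.26e-05, SE 0.13, 95% interval -2.29 to -1.70) and FMOD by -2.29 (edgeR adjusted p = 0.000156, SE 0.24, 95% interval -2.84 to -1.74). For ASPN the log2 fold change was -3.15 (edgeR adjusted p = 0.000228, SE 0.36, 95% interval -3.96 to -2.34). The sum of the epithelial markers, which was higher in all 3DF than in all 2DC libraries, was 0.0373, 0.145 and 5.83 FPKM in replicates 1, 2 and 3 of 3DF_50. Not every marker followed the sum, since TP63 was at -0.86 (edgeR adjusted p = 0.316) in 3DF against 2DC.

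Against 2DF, where the cells touched the same fibrillar collagen from above, the 3 genes were lower in 3DF, at a background of 1.69% called lower. BGN differed by -1.84 (edgeR adjusted p = 0.000636, SE 0.18, 95% interval -2.24 to -1.44). FMOD differed by -1.90 (edgeR adjusted p = 0.00431, SE 0.29, 95% interval -2.55 to -1.26) and ASPN by -3.49 (edgeR adjusted p = 0.00245, SE 0.47, 95% interval -4.54 to -2.43). The directions held with the first characters of the library names, such as E5 or E6, as a block, but no adjusted p passed, with -2.17 (adjusted p = 0.179) for BGN, -2.56 (adjusted p = 0.142) for ASPN and -1.94 (adjusted p = 0.0555) for FMOD. With this block 1 of 13195 genes tested was called in 3DF against 2DF. What these prefixes mark is not stated in the labels. 2DF shared a prefix with another condition only in E5, and it shared none with 3DF.

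In 3DF_50 against 2DF the background was 3.01% called lower, and the 3 genes were lower. BGN was at -2.33 (95% interval -2.66 to -2.002, edgeR adjusted p = 5.49e-06), ASPN at -3.05 (95% interval -4.17 to -1.94, edgeR adjusted p = 0.00228) and FMOD at -2.76 (95% interval -3.26 to -2.26, edgeR adjusted p = 2.96e-05). Against the directly lysed 2DC_L the background was 5.98% for 3DF and 8.47% for 3DF_50. BGN differed from 2DC_L by -1.47 (95% interval -1.94 to -0.99, edgeR adjusted p = 0.00114) in 3DF and -1.97 (95% interval -2.38 to -1.56, edgeR adjusted p = 2.86e-05) in 3DF_50. ASPN differed by -3.56 (95% interval -4.04 to -3.08, edgeR adjusted p = 1.3e-05) and -3.13 (95% interval -3.83 to -2.43, edgeR adjusted p = 4.32e-05). FMOD differed by -1.71 (95% interval -2.33 to -1.09, edgeR adjusted p = 0.00209) and -2.58 (95% interval -3.04 to -2.12, edgeR adjusted p = 1.17e-05). The 3 genes were also lower in 3D in each pair of libraries with the same prefix, with log2 differences in FPKM of -2.58 to -0.87 for BGN, -3.95 to -2.72 for ASPN and -2.92 to -1.45 for FMOD.

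**Figure D2:**
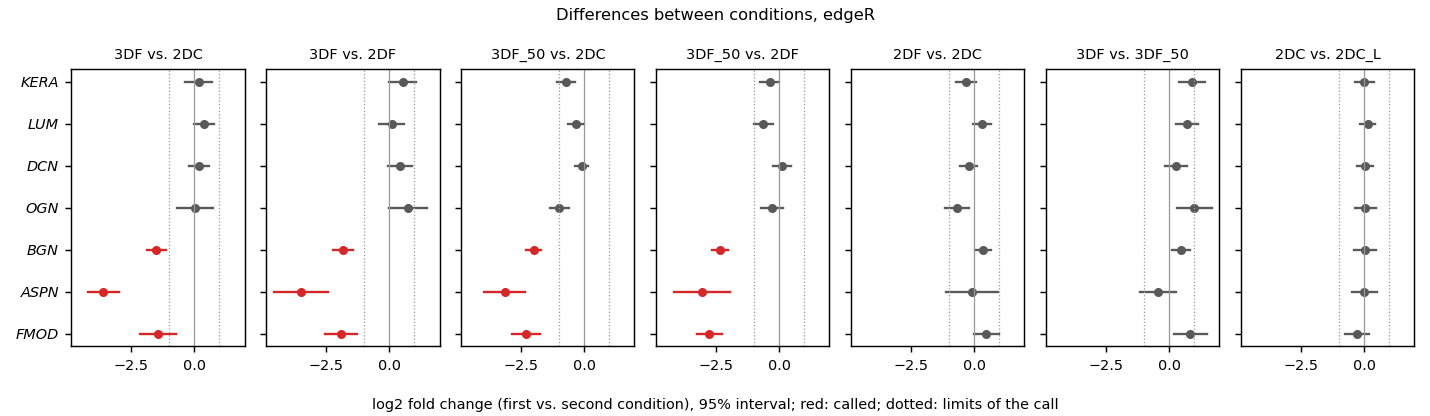
Log2 fold change (horizontal axis) of each proteoglycan gene between pairs of conditions, from edgeR on the counts, with 95% intervals. Red marks called genes, and dotted lines mark the fold limit of the call. BGN, ASPN and FMOD lie left of the limit in the 4 panels that set a 3D against a 2D condition, and no gene is red in the other 3 panels.

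KERA, LUM, DCN and OGN were not called in any comparison. KERA, the keratan sulfate proteoglycan most specific to the keratocyte, had 3296, 3070.1 and 2359 FPKM in 2DC and 2808, 2502 and 3351 FPKM in 2DC_L. It had 1915, 2631 and 2381 FPKM in 2DF, 4555, 2756 and 2706 FPKM in 3DF and 1820.0, 1507 and 1966 FPKM in 3DF_50. The order of the means was 3DF, 2DC, 2DC_L, 2DF and 3DF_50, and no neighbours in it differed by the edgeR test. The 3DF mean was raised by replicate 1, while the 3DF_50 libraries were all below those of 2DC, as in 26.2% of all genes. In 3DF against 2DC the log2 fold change was 0.19 (95% interval -0.34 to 0.72, edgeR adjusted p = 0.631), and without 3DF replicate 1 it was -0.093 (adjusted p = 0.721) in edgeR. In 3DF_50 against 2DC it was -0.72 (95% interval -1.08 to -0.36, edgeR adjusted p = 0.00674), which passed the adjusted p but not the fold limit. Of all genes, 20.3% passed that adjusted p on the lower side. Against 2DC_L it was -0.71 (95% interval -1.07 to -0.35, edgeR adjusted p = 0.00574), where 22.1% of all genes passed it, and there it was -0.35 (adjusted p = 0.0595) with library size alone and -0.55 (adjusted p = 0.149) with the prefix block. In 3DF_50 against 2DC it was -0.36 (adjusted p = 0.0431) with library size alone as the scaling and -0.53 (adjusted p = 0.222) with the prefix block, and limma on log2(FPKM + 1) gave an adjusted p of 0.0572. KERA differed by 0.54 (95% interval -0.010 to 1.08, edgeR adjusted p = 0.237) in 3DF against 2DF, or 0.24 (adjusted p = 0.516) without 3DF replicate 1, and by -0.37 (95% interval -0.74 to -0.00044, edgeR adjusted p = 0.194) in 3DF_50 against 2DF.

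OGN, a class III proteoglycan that influences fibril diameter, had the same order of means as KERA. It had 8478, 7357 and 5918 FPKM in 2DC and 6863, 5848 and 8361 FPKM in 2DC_L. It had 3359, 5363 and 4829.8 FPKM in 2DF, 11823, 5556 and 5169 FPKM in 3DF and 3823, 3261 and 3978 FPKM in 3DF_50. Replicate 1 of 3DF stood above every other library, and the other two lay below the lowest 2DC library. The log2 fold change of 3DF against 2DC was 0.039 (95% interval -0.69 to 0.76, edgeR adjusted p = 0.947), and -0.44 (adjusted p = 0.123) in edgeR without that library. In 3DF_50 against 2DC it was -0.97 (95% interval -1.33 to -0.62, edgeR adjusted p = 0.00157), just inside the fold limit, and against 2DC_L -0.93 (95% interval -1.32 to -0.53, edgeR adjusted p = 0.00222), or -0.76 (adjusted p = 0.106) with the prefix block. In 3DF_50 against 2DC it was -0.62 (adjusted p = 0.00387) with library size alone and -0.72 (adjusted p = 0.181) with the prefix block, and limma on log2(FPKM + 1) gave an adjusted p of 0.0693. OGN was called without 2DC replicate 3 at -1.10 (adjusted p = 0.000310), without 3DF_50 replicate 1 at -1.003 (adjusted p = 0.00808) and without 3DF_50 replicate 3 at -1.03 (adjusted p = 0.00578). OGN differed by 0.74 (95% interval -0.013 to 1.49, edgeR adjusted p = 0.236) in 3DF against 2DF, or 0.25 (adjusted p = 0.617) without 3DF replicate 1, and by -0.27 (95% interval -0.71 to 0.16, edgeR adjusted p = 0.429) in 3DF_50 against 2DF.

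LUM, the keratan sulfate proteoglycan whose loss clouds the cornea, had its highest means in 3DF and 2DF. It had 8616, 7812 and 7029 FPKM in 2DC and 7387, 6526 and 7299 FPKM in 2DC_L. It had 8738, 9475 and 10712 FPKM in 2DF, 12432, 9326 and 9175 FPKM in 3DF and 6555, 5272 and 6820.1 FPKM in 3DF_50. All 3DF and all 2DF libraries were above all 2DC libraries, but by 0.39 (95% interval -0.016 to 0.79, edgeR adjusted p = 0.187) for 3DF and 0.31 (95% interval -0.048 to 0.66, edgeR adjusted p = 0.224) for 2DF, neither past the edgeR test. LUM passed the adjusted p in 2DF with DESeq2 (0.0465) and with library size alone (0.0402), and in 3DF with library size alone (0.0363), in each case under the fold limit. Without overlap, 19.1% and 17.3% of all genes were higher in these comparisons. In 3DF_50 against 2DF LUM differed by -0.62 (95% interval -1.01 to -0.22, edgeR adjusted p = 0.0434), past the adjusted p, as 8.58% of all genes were on the lower side, but not the fold limit. In the edgeR fits that left out 1 library, LUM there passed the adjusted p without 2DF replicate 1 (0.0315) and had adjusted p of 0.0714 to 0.133 without any other. In the order 3DF, 2DF, 2DC, 2DC_L and 3DF_50 no neighbours differed by the edgeR test. LUM was at 0.10 (95% interval -0.38 to 0.59, edgeR adjusted p = 0.823) in 3DF against 2DF and at -0.33 (95% interval -0.65 to -0.0078, edgeR adjusted p = 0.0990) in 3DF_50 against 2DC.

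DCN, the class I proteoglycan that binds fibrils and growth factors, was the member that did not pass the edgeR test over 5 conditions. It had 9789.8, 9658 and 8518 FPKM in 2DC and 8518, 8422 and 10539 FPKM in 2DC_L. It had 7639, 8296 and 8171 FPKM in 2DF, 12799.5, 9114 and 10108 FPKM in 3DF and 8632, 8348 and 9065 FPKM in 3DF_50. In the order 3DF, 2DC, 2DC_L, 3DF_50 and 2DF no neighbours differed by the edgeR test. That order is of mean FPKM. By mean share of counts DCN was higher in 3DF_50 (2.11%) than in 2DC (1.77%) and 2DC_L (1.73%). Its mean was lowest in 2DF, whose 3 libraries lay below all of 2DC. The log2 fold change was 0.18 (95% interval -0.22 to 0.58, edgeR adjusted p = 0.524) in 3DF against 2DC, -0.10 (95% interval -0.37 to 0.17, edgeR adjusted p = 0.538) in 3DF_50 against 2DC and 0.41 (95% interval -0.062 to 0.89, edgeR adjusted p = 0.291) in 3DF against 2DF.

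The comparison of 2DF with 2DC asked what fibrillar collagen under the cells changes. edgeR called 0 of the 7 genes, at a background of 4.96% of all genes called in either direction. An unadjusted p under 0.05 was reached by 2 of the 7, and the share of all genes at that threshold is not given here. DESeq2 and limma also called 0. The nearest to a call was OGN, at -0.68 (95% interval -1.16 to -0.20, edgeR adjusted p = 0.0658), lower in all 2DF than in all 2DC libraries, as were DCN and 18% of all genes. DESeq2 gave it an adjusted p of 0.00182 at -0.68. KERA differed by -0.33 (95% interval -0.72 to 0.064, edgeR adjusted p = 0.239) and DCN by -0.21 (95% interval -0.54 to 0.12, edgeR adjusted p = 0.372). BGN was at 0.36 (95% interval 0.032 to 0.69, edgeR adjusted p = 0.132) and FMOD at 0.49 (95% interval -0.021 to 0.999, edgeR adjusted p = 0.183), both in the direction opposite to their difference in 3D. For ASPN the interval was wide, at -0.078 (95% interval -1.11 to 0.95, edgeR adjusted p = 0.928).

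Cell number in the matrix was addressed by 3DF against 3DF_50. edgeR called 0 of the 7, at a background of 0.452% of all genes called, and DESeq2 and limma called 0. An unadjusted p under 0.05 was reached by 5 of the 7 in edgeR, and the share of all genes at that threshold is not given here. However, KERA, LUM, DCN, OGN and BGN were higher in all 3DF than in all 3DF_50 libraries, which 16.8% of all genes were. The log2 fold change was 0.9999 (95% interval 0.32 to 1.68, edgeR adjusted p = 0.138) for OGN, 0.89 (95% interval 0.38 to 1.41, edgeR adjusted p = 0.102) for KERA and 0.70 (95% interval 0.26 to 1.15, edgeR adjusted p = 0.117) for LUM. BGN was at 0.47 (95% interval 0.13 to 0.82, edgeR adjusted p = 0.154), FMOD at 0.85 (95% interval 0.20 to 1.496, edgeR adjusted p = 0.165) and DCN at 0.27 (95% interval -0.15 to 0.69, edgeR adjusted p = 0.445). ASPN alone had a negative value, -0.45 (95% interval -1.17 to 0.26, edgeR adjusted p = 0.453). Without 3DF replicate 1 edgeR gave 0.52 (adjusted p = 0.0822) for OGN, 0.61 (adjusted p = 0.0566) for KERA, 0.12 (adjusted p = 0.621) for DCN and 1.09 (adjusted p = 0.0480) for FMOD, of which FMOD was called. With DESeq2 the adjusted p was 0.00283 for KERA, 0.00356 for LUM, 0.0107 for OGN and 0.0496 for FMOD, each with a log2 fold change under 1. In edgeR with all 5 conditions in the fit the adjusted p was 0.0236 for KERA, 0.0236 for LUM, 0.0404 for OGN, which was called, and 0.0720 for FMOD. Whether these 4 differences passed the adjusted p thus depended on the tool and on the fit.

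The comparison of 2DC with 2DC_L asked what the incubation in digestion medium changes. edgeR called 0 of the 7 genes, at a background of 0.265%, with 0 at an unadjusted p under 0.05 and 0 called by DESeq2 or limma. The log2 fold changes ran from -0.29 (95% interval -0.76 to 0.19, edgeR adjusted p = 0.919) for FMOD to 0.15 (95% interval -0.15 to 0.44, edgeR adjusted p = 0.919) for LUM. The libraries overlapped for all 7.

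Ratios within a library do not depend on how libraries are scaled to each other. The log2 ratio of BGN to DCN in FPKM was -4.99, -4.74 and -4.40 in 2DC and -4.03, -4.44 and -3.98 in 2DF, against -6.95, -6.04 and -6.19 in 3DF. In means, there were 26.1 DCN for each BGN in 2DC and 84.1 in 3DF. The log2 ratio of FMOD to LUM was -5.16, -5.13 and -5.63 in 2DC and -8.01, -6.42 and -7.06 in 3DF. That of ASPN to DCN was -5.37, -4.92 and -4.32 in 2DC and -8.86, -8.08 and -8.93 in 3DF. All 3 ratios were lower in every 3D than in every 2D library.

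The log2 ratio of KERA to LUM was -1.39, -1.35 and -1.57 in 2DC, -2.19, -1.85 and -2.17 in 2DF, -1.45, -1.76 and -1.76 in 3DF and -1.85, -1.81 and -1.79 in 3DF_50. That of OGN to LUM was -0.023, -0.087 and -0.25 in 2DC, -1.38, -0.82 and -1.15 in 2DF, -0.072, -0.75 and -0.83 in 3DF and -0.78, -0.69 and -0.78 in 3DF_50. Both ratios were lower in 2DF than in 2DC without overlap. The 2DF libraries overlapped those of 3DF_50 in KERA to LUM and those of 3DF in OGN to LUM, and 3DF replicate 1 lay with the 2DC libraries in OGN to LUM.

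**Figure D3:**
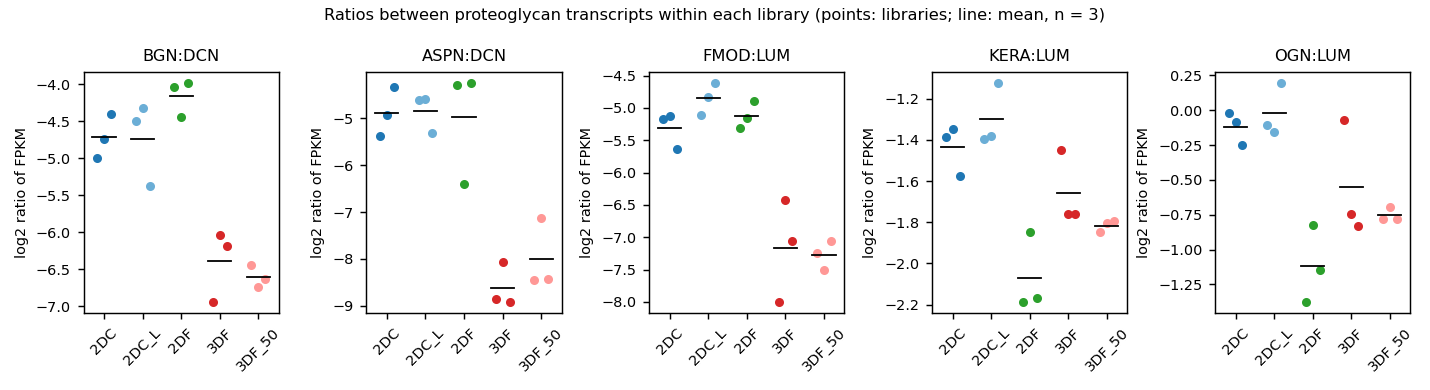
Log2 ratio of FPKM between pairs of proteoglycan genes (vertical axis, a separate range in each panel) in the 5 conditions (horizontal axis). Points are libraries and lines are means of 3 libraries. The ratios of BGN to DCN, ASPN to DCN and FMOD to LUM are lower in all 3DF and 3DF_50 libraries than in all others, and the means of KERA to LUM and OGN to LUM are lowest in 2DF.

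KERA, LUM, DCN and OGN varied together from library to library. After the mean of its condition was taken from each library, the correlations among KERA, LUM, DCN and OGN ran from 0.735 to 0.975 over 15 libraries, highest for KERA with OGN. Among BGN, ASPN and FMOD they ran from -0.215 to 0.360, although over the 15 libraries as they stand they ran from 0.822 to 0.929. These are descriptions of libraries that share condition, depth and scaling. In 3DF replicate 1 OGN was 0.76 and KERA 0.49 above the condition mean on the log2 scale, while FMOD was 0.55 and BGN 0.28 below it.

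**Figure D4:**
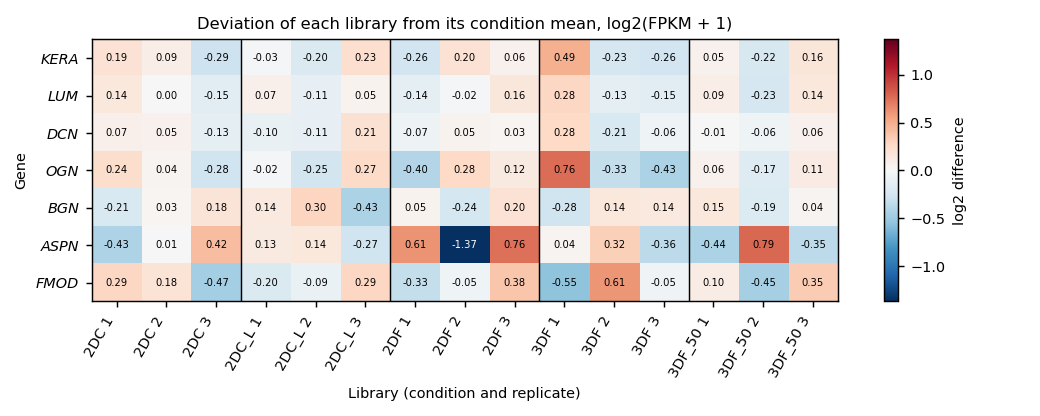
Deviation of log2(FPKM + 1) from the mean of its condition, for each gene (rows) and library (columns), with red above and blue below the mean. KERA, LUM, DCN and OGN deviate together, as in 3DF replicate 1, while ASPN has its own extremes in 2DF replicate 2 (-1.37) and 3DF_50 replicate 2 (0.79).

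By the correlation of log2(FPKM + 1) over the 15 libraries among 9689 genes with a mean of at least 1 FPKM, KERA was most like TBC1D12 (r = 0.982), OGN (r = 0.964) and TRAM1 (r = 0.964). OGN was most like CASC4 (r = 0.969), KERA (r = 0.964) and ULK2 (r = 0.962). For LUM the genes were SPIN1 (r = 0.929), BMPR2 (r = 0.918) and NREP (r = 0.906), and for DCN CLASP2 (r = 0.970), PGRMC2 (r = 0.949) and LMBRD1 (r = 0.942). KERA and OGN, which lie on different chromosomes, were thus among each other's nearest genes. BGN was most like DKK3 (r = 0.988), ENG (r = 0.974) and EDEM1 (r = 0.970), ASPN like MARS (r = 0.969), NTN4 (r = 0.961) and LOX (r = 0.954). FMOD was most like COL8A2 (r = 0.992), CNRIP1 (r = 0.979) and MGARP (r = 0.978). COL8A2, a collagen of Descemet's membrane, was also the gene nearest to FMOD within conditions (r = 0.942). CLASP2 for DCN, and KERA and OGN for each other, also held place 1 there. Every other gene listed ranked lower within conditions, from place 5 (TBC1D12 for KERA, LMBRD1 for DCN) to 582 (LOX for ASPN) and 715 (BMPR2 for LUM).

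In the oryCun2 build of the files, KERA (chr4:70262575-70269568), LUM (chr4:70315437-70323221) and DCN (chr4:70357836-70397995) stand in a row on the minus strand, with EPYC next to KERA. OGN (chr1:70251553-70270135) and ASPN (chr1:70308159-70332292) stand in another row with OMD and ECM2. FMOD is at chr16:68440312-68449022 and BGN on the unplaced scaffold Un0118 at 868472 to 879270. In 3DF against 2DC ASPN was called lower, while OGN, OMD and ECM2 beside it were not called. OMD was at -0.31 (95% interval -0.90 to 0.28, edgeR adjusted p = 0.470), and ECM2 at -0.55 (95% interval -0.86 to -0.24, edgeR adjusted p = 0.0282) passed the adjusted p only. In 3DF_50 against 2DC_L OMD, at -1.04 (edgeR adjusted p = 0.00367), and ECM2, at -1.02 (edgeR adjusted p = 0.00146), were called lower, as was ASPN. The background there was 8.47% called lower, and OGN was not called, at -0.93 (edgeR adjusted p = 0.00222). OMD and ECM2 were not called in 3DF_50 against 2DC or 2DF. Loci on the opposite strand overlap KERA (LOC108176669), the 5′ end of BGN (LOC108175819) and the row of OGN and ASPN (CENPP). Whether reads were counted by strand is not stated in the sources used here, so reads in these overlaps cannot be assigned to a gene with certainty.

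Of 10 other family members on a list, 9 were in the table and 7 could be tested. CHAD (chondroadherin), a class IV member, was called higher. Its mean was 33.4 ± 6.63 FPKM in 2DC, against 215 ± 38.5 FPKM in 2DF and 85.3 ± 15.4 FPKM in 3DF (SD, n = 3). Its log2 fold change was 2.69 (edgeR adjusted p = 7.52e-05, SE 0.18, 95% interval 2.29 to 3.09) in 2DF against 2DC and 1.34 (edgeR adjusted p = 0.00245, SE 0.19, 95% interval 0.92 to 1.77) in 3DF against 2DC, at backgrounds of 2.04% and 3.24% called higher. In 3DF it was lower than in 2DF, at -1.33 (95% interval -1.72 to -0.94, edgeR adjusted p = 0.00234). CHAD thus had its highest level on top of the matrix, where no member of the 7 was called.

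PRELP, another class II member, averaged 388 ± 108 FPKM in 2DC, with 582 ± 78.6 FPKM in 2DF and 292 ± 87.2 FPKM in 3DF. It differed by -0.42 (95% interval -1.05 to 0.21, edgeR adjusted p = 0.353) in 3DF against 2DC and by -1.27 (95% interval -1.57 to -0.97, edgeR adjusted p = 0.000157) in 3DF_50 against 2DF, where it was called lower. CHAD was called lower in the latter too, at -1.78 (95% interval -2.11 to -1.45, edgeR adjusted p = 3.29e-05). TSKU (tsukushi) was at 0.83 (95% interval 0.59 to 1.07, edgeR adjusted p = 0.00150) in 3DF against 2DC, under the fold limit. EPYC (epiphycan) ran from 4.92 to 157 FPKM between libraries, and its difference of -1.08 (95% interval -3.15 to 0.99, edgeR adjusted p = 0.469) in 3DF against 2DC was within that spread. It was called lower in 2DF against 2DC_L, at -2.55 (95% interval -3.65 to -1.45, edgeR adjusted p = 0.00531), as were 586 of 13152 genes. In 2DF against 2DC EPYC was not called, at -2.30 (edgeR adjusted p = 0.0882). PODN (podocan), called lower in 3DF_50 against 2DC at -1.13 (95% interval -1.85 to -0.41, edgeR adjusted p = 0.0216), lay at 0.712 to 3.10 FPKM, and NYX and OPTC did not exceed 0.0460 and 0.602 FPKM in any library.

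Genes that build, cut or receive signals from these proteoglycans were counted from lists. Of 9 tested genes of keratan sulfate synthesis, 1 was lower in 3DF than in 2DC, where 4.32% of all genes were called lower, with a median log2 fold change of 0.66 against 0.012 over all genes. CHST2, a sulfotransferase of this pathway, was at -1.60 (edgeR adjusted p = 0.0133, SE 0.33), or 1.84 ± 0.693 FPKM in 2DC and 0.609 ± 0.0694 FPKM in 3DF. The list median was thus opposite in sign to the called gene. In 2DF against 2DC 1 was higher, B3GNT7, which extends the keratan sulfate chain, at 1.16 (edgeR adjusted p = 0.00395, SE 0.18), against 2.04% of all genes. Of 22 tested genes of chondroitin and dermatan sulfate synthesis, 1 was higher in 3DF, against 3.24% of all genes. This was CHST7, by 1.17 (edgeR adjusted p = 0.00689, SE 0.21), with a list median of 0.087.

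Of 11 tested proteases and helpers that act on these proteins or their collagen partners, 2 were higher and 1 lower in 3DF than in 2DC, where 3.24% of all genes were higher and 4.32% lower (list median -0.10). TLL1, a relative of the protease that matures BGN and OGN, rose from 0.743 ± 0.264 to 6.50 ± 1.19 FPKM, by 3.11 (edgeR adjusted p = 0.000302, SE 0.28), and MMP14 rose by 1.21 (edgeR adjusted p = 0.0131, SE 0.25). ADAMTS5, which cleaves proteoglycan cores, fell from 43.1 ± 3.93 to 14.99 ± 3.38 FPKM, with a log2 fold change of -1.53 (edgeR adjusted p = 0.000753, SE 0.17). MMP14 and ADAMTS5 were also called in 2DF against 2DC, at 1.35 (edgeR adjusted p = 0.00112, SE 0.16) and -2.29 (edgeR adjusted p = 4.18e-05, SE 0.13). TLL1 was not called there, at 0.18 (edgeR adjusted p = 0.764, SE 0.35).

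Of 15 tested receptors and ligands of these proteoglycans, 2 were higher and 1 lower in 3DF than in 2DC, against the same 3.24% and 4.32% of all genes (list median -0.25). TLR4, which binds soluble BGN and DCN, rose from 0.888 ± 0.0279 to 13.5 ± 1.57 FPKM, by 3.91 (edgeR adjusted p = 7.83e-06, SE 0.14). KDR, a growth factor receptor that DCN can bind, rose by 1.301 (edgeR adjusted p = 0.00625, SE 0.22). CTGF, a matricellular ligand bound by DCN, was lower, at 185 ± 89.3 and 9.32 ± 3.15 FPKM, with a log2 fold change of -4.32 (edgeR adjusted p = 0.000389, SE 0.40). TLR4 was also higher in 2DF than in 2DC, by 1.74 (edgeR adjusted p = 0.000427, SE 0.16). In 3DF_50 against 2DC TLR4 was called higher and KDR was not. KDR had 61.1 ± 13.4 FPKM in 3DF_50, against 114 ± 2.07 FPKM in 3DF and 46.0 ± 15.1 FPKM in 2DC.

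Collagens on a list of fibril collagens and of collagens VI, XII and XIV were lower in part. Of 11 tested, 5 were lower in 3DF than in 2DC, COL1A1, COL1A2, COL3A1, COL5A3 and COL14A1, against 4.32% of all genes, with a list median of -0.83. COL5A1, COL5A2 and COL12A1, at -0.81, -0.72 and -0.83, passed the adjusted p only (edgeR, 0.0305, 0.0105 and 0.00790). COL6A1, COL6A2 and COL6A3 were at 0.25, 0.35 and 0.11 (edgeR adjusted p = 0.387, 0.216 and 0.747). COL5A3 had a log2 fold change of -4.35 (edgeR adjusted p = 0.000270, SE 0.37), and COL3A1, at 1.49 ± 0.799 FPKM in 2DC, had -2.57 (edgeR adjusted p = 0.00524, SE 0.42). In 2DF against 2DC 2 of 11 were lower, where 2.93% of all genes were. In 3DF_50 against 2DC 8 of 11 were lower, where 7.33% of all genes were. In 3DF_50 against 2DF 5 of 11 were lower, with a list median of -1.27, where 3.01% of all genes were lower. In 3DF against 2DF edgeR called 0 of 11, with a list median of -0.38, where 3.78% of all genes were called. An unadjusted p under 0.05 was reached there by 5 of 11, and the share of all genes at that threshold is not given here.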

How the data were processed

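Bulk RNA-seq of rabbit keratocytes was analysed in 15 libraries, 3 in each of 5 conditions taken from the labels. The authors aligned reads to oryCun2 with HISAT2 2.0.5 and counted them per gene with featureCounts 1.5.0-p3. They deposited raw counts and FPKM for 23428 genes, of which 15405 carry a symbol. How the library size behind the deposited FPKM was set is not stated in the sources used here. That size was 0.921 to 1.24 times the total counts. It was 1.21, 1.24 and 1.19 times in 3DF_50 and 0.924, 0.928 and 0.995 times in 2DC. The tables also hold gene length and position, and 0 columns of other samples.

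Counts were tested with edgeR 4.0.16 in R 4.3.3, by its quasi-likelihood F test after TMM scaling. Low genes were removed by filterByExpr at its default minimum of 10 counts. Each comparison used the 6 libraries of its pair, and p-values were adjusted over all genes tested by the Benjamini-Hochberg method. All 7 members passed the filter in every comparison. The edgeR test is two-sided. The study's methods used DESeq2, which was run here as an alternative (DESeq2 1.42.0), as was limma 3.58.1 on log2 values of FPKM with a pseudocount of 1 or 0.1. Further alternatives were other scalings and filters, all conditions in one fit, blocks by replicate number or library prefix, no fold limit, and leaving out each library. The comparisons of 3DF and 3DF_50 share the 2D libraries, and those of 2DF and 3DF share 2DC. The edgeR test was checked on counts simulated from the 3DF and 2DC libraries.

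Named genes were the 7 members, the other family members, up to 2 called genes per list and direction with a mean of at least 1 FPKM, and the 3 genes most like each member. B3GNT7, COL1A1, COL1A2, COL14A1, ALCAM and MYH11 were named outside this rule after their values were seen, since the counts were small. COL5A1, COL5A2, COL6A1, COL6A2, COL6A3, COL12A1 and TP63 were also named after their values were seen. The members and lists were chosen with earlier results of these data known. Descriptions were computed with Python 3.11.15, numpy 2.4.6, pandas 2.3.3 and matplotlib 3.10.9. Total counts were 14626982 to 31804255 per library, and the smallest count of a member in any library was 659.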

Additional observations from a re-analysis of the deposited data

How the results depend on the processing

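Of the 18 called differences of BGN, ASPN and FMOD between 3D and 2D, all 18 kept their direction under every alternative run and 14 stayed called under each of them. The others were the 3 in 3DF against 2DF and FMOD in 3DF against 2DC. Of the 3, 0 were called with the library prefix as a block, where 1 of 13195 genes tested was called. FMOD in 3DF against 2DC was not called without 2DC replicate 2 or 3DF replicate 3. In 3DF against 3DF_50, 1 member was called with all 5 conditions in the fit (OGN), and 0 to 1 when single libraries were left out (FMOD without 3DF replicate 1). Without the fold limit 5 members were called in 3DF_50 against 2DC and 5 against 2DC_L, where 5098 of 13402 and 5713 of 13321 genes were called. The test over 5 conditions called 3 members with the prefix block, where it called 2793 of 14036 genes. It called 3 with limma on log2(FPKM + 1) and 3 on log2(FPKM + 0.1), where it called 5491 and 5570 of 14845 genes. The 7 genes' share was 5.45% in 3DF_50, 6.04% in 2DF, 6.16% in 2DC_L, 6.48% in 2DC and 7.85% in 3DF of summed FPKM in place of counts.

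Of the differences given above that were not called, the following changed sign. OGN in 3DF against 2DC was -0.051 with the replicate block, -0.040 with limma at either pseudocount, and -0.44 to 0.25 when single libraries were left out. KERA there was -0.093 to 0.32 when single libraries were left out. ASPN in 2DF against 2DC was 0.018 with library size alone and -0.41 to 0.34 when single libraries were left out. LUM in 3DF against 2DF was -0.11 with the prefix block and -0.057 to 0.18 when single libraries were left out. ASPN in 3DF against 3DF_50 was 0.18 with the prefix block and -0.69 to 0.068 when single libraries were left out. With library size alone LUM in 3DF_50 against 2DC was 0.024 and DCN 0.25, and DCN was 0.029 with the members and largest genes left out of the library size. FMOD in 2DC against 2DC_L was 0.066 with the prefix block, and the 5 members there with values of 0.012 to 0.048 each changed sign under at least 1 alternative. The cause was not tested. Library size alone shifted the median of all genes by 0.19 in 3DF against 2DC and 0.36 in 3DF_50 against 2DC.

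In no comparison did all 3 same-numbered pairs of libraries have correlated deviations above 0.1 (-0.0188, 0.124 and -0.00408 in 3DF against 2DC), and every library correlated best with its own number only in 3DF_50 against 2DC_L (6 of 6 libraries, a hint from the data). The numbers were therefore not taken as pairs, and the replicate block changed no call of a member (3 in 3DF against 2DC).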

Other observations

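Of 3 tested myofibroblast markers, which mark activated stromal cells, ACTA2 and TAGLN were lower in 3DF than in 2DC. TAGLN had 4.56 ± 0.719 FPKM in 2DC and 0.454 ± 0.172 FPKM in 3DF (SD, n = 3), with a log2 fold change of -3.34 (edgeR adjusted p = 0.000453, SE 0.32). ACTA2 differed by -3.40 (edgeR adjusted p = 0.00276, SE 0.49), from 1.32 ± 0.517 to 0.120 ± 0.0573 FPKM, and was also lower in 2DF than in 2DC, at -1.85 (edgeR adjusted p = 0.0337, SE 0.48). MYH11 was at -0.34 (edgeR adjusted p = 0.523, SE 0.32) in 3DF against 2DC. Of the 4 corneal endothelium markers COL8A2 was lower in 3DF than in 2DC, at -1.31 (edgeR adjusted p = 0.00793, SE 0.24), and ALCAM was at -0.94 (edgeR adjusted p = 0.00946, SE 0.18), past the adjusted p only. In 3DF_50 against 2DC both were called lower. SLC4A11 and CLDN2 lay at or below 1.28 and 0.119 FPKM in every library, and the part of that cell type was not tested. The epithelial keratin KRT12 was listed at 0 in all libraries of 2DC and 2DC_L and had 2.47, 4.40 and 3.72 FPKM in 3DF. It had 0, 1.26 and 0.250 FPKM in 2DF and 0, 0 and 2.13 FPKM in 3DF_50. In both prefixes that 2DC and 2DC_L share, KERA, LUM, DCN and OGN were 0.20 to 0.33 higher in 2DC on the log2 scale of FPKM, and BGN and ASPN 0.14 to 0.56 lower.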
